A study of Mus musculus with 4 samples.

Results

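The 9 genes described here, Esm1, Apln, Igfbp3, Adm, Cxcr4, Unc5b, Mcam, Kcne3 and Rasip1, are known from the leading tip cells of growing vessels or from the forming of sprouts and vessel lumens. They were taken by symbol from a table of 23278 genes, and all 9 were found. Of them 7 had a mean of at least 1 FPKM (fragments normalised for transcript length and sequencing depth) and a usable status in every library, while Esm1 and Kcne3 lay below that level. Whole mouse retinas taken at postnatal day 10 were sequenced, with 1 library for each of 4 genotypes. The labels give a mixed background with at least C57BL6 and 129, and an injection of 20 μg 4HT, the active form of tamoxifen, at postnatal day 3 for every group.

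The stabilized knockout (NdpKO;Ctnnb1flex3/+;Pdgfb-CreER, titled NdpKO rescue) lacked Ndp and carried an allele that recombination turns into stabilized beta-catenin. The knockout (NdpKO) lacked Ndp alone. The stabilized library (Ctnnb1flex3/+;Pdgfb-CreER) carried the stabilizing allele and the recombinase with Ndp intact. WT had none of these changes. In the libraries with Pdgfb-CreER, recombination is driven by Pdgfb regulatory sequence, which acts in endothelial cells. The genotypes given for the knockout and WT name no CreER, so stabilization and the CreER transgene cannot be told apart. Differences with stabilization below are to be read with that limit. Per genotype, 3 batches were pooled, with 4 to 8 retinas (2 to 4 mice) in a batch, so there is no spread between animals, no test was possible, and every difference below is one library against another without a replicate check. The bounds given in parentheses after an FPKM are the deposited interval, which describes the estimate within a library.

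In the growing retina, vessels spread over the surface and then send sprouts down to form the deep capillary layers. VEGF released by oxygen-starved neurons and glia turns some endothelial cells into tip cells, which steer the sprout, while stalk cells follow and form the lumen. Norrin, the ligand encoded by Ndp, acts on endothelial Frizzled-4 and beta-catenin, and mice without it lack the deep capillaries. Tip-cell genes thus report on sprouting, but several of them also answer to hypoxia or are used by neurons, glia or mural cells.

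Ndp was at 0.869 FPKM in the stabilized knockout and 0.873 FPKM in the knockout, against 2.35 FPKM with stabilization alone and 2.98 FPKM in WT. The summed level of 16 pan-endothelial identity genes was 45.6 FPKM in the stabilized knockout, 21.3 FPKM in the knockout, 42.8 FPKM with stabilization alone and 24.4 FPKM in WT, and no gene of that list was at 0 in any library. More endothelial cells and more RNA per cell cannot be told apart in whole-retina RNA. Globin RNA moved the same way, with a sum over 7 erythroid genes of 176 and 164 FPKM in the libraries with stabilization and 75.6 and 69.8 FPKM in the knockout and WT. Xist was at 1.28 and 1.25 FPKM in both knockout libraries, against 130 and 135 FPKM in the others, so the loss of Ndp and male sex cannot be told apart. This touches Apln most directly, since it lies on the X chromosome. Relative depth, estimated from the interval widths of low genes, was 0.579, 0.538 and 0.428 of that of WT in the stabilized knockout, knockout and stabilized libraries. The interval of Mcam, at 4.65 FPKM in both, reached 20.4% of the value to each side in the knockout and 20.2% in WT. Intervals at that level thus do not show the depth gap, and the estimate is rough.

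The 250 bases before the start sites of 5 members are shown, those with a mean of at least 1 FPKM that passed 1.5-fold in a comparison. These were chosen as the ones whose promoters a reader may wish to compare. They are from RefSeq on GRCm38.p6, which holds 10 start sites for the 9 members, and are written 5′ to 3′ on the strand of the gene. The windows are Apln at chrX:48034854-48035103, minus strand, Igfbp3 at chr11:7213924-7214173, minus strand, Adm at chr7:110627407-110627656, plus strand, Cxcr4 at chr1:128592300-128592549, minus strand and Mcam at chr9:44134408-44134657, plus strand. Capitals mark the TCF/LEF motif (CTTTGAT or CTTTGTT), bound by the DNA-binding partners of beta-catenin, and the core of hypoxia response elements (ACGTG or GCGTG), on either strand.
Apln: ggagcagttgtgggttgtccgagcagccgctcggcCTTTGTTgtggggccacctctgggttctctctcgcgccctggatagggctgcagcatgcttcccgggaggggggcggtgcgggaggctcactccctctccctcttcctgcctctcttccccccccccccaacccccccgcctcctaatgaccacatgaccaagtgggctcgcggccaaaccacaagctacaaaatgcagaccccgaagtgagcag
Igfbp3: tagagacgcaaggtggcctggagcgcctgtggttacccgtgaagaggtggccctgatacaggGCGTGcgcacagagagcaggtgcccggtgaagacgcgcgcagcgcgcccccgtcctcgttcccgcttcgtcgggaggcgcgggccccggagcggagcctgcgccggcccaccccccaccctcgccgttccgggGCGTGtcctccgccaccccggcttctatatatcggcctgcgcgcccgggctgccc
Adm: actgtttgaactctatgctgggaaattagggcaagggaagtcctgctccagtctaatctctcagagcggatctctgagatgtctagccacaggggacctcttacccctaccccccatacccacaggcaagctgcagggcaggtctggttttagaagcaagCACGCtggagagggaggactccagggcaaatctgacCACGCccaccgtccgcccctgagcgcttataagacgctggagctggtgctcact
Cxcr4: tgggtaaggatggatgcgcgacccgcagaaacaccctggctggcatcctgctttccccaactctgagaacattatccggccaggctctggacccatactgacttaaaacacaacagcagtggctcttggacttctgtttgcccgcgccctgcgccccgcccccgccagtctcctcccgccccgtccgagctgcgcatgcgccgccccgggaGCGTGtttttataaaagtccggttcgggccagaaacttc
Mcam: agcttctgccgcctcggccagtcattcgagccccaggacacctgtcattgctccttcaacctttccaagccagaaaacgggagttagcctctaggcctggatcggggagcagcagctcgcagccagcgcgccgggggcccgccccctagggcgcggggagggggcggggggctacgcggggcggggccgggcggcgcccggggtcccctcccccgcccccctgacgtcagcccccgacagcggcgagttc

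The TCF/LEF motif was found before 1 of the 9 members, Apln, against 8.06% of all 32851 promoter windows of this length. The hypoxia core was found before 6 of 9 members, with 2 matches each before Igfbp3 and Adm and 1 before Cxcr4, against 38.6% of all windows. An ETS core (CCGGAA or CAGGAA), for a family of endothelial factors, was found before 6 of 9 members, against 35.1% of windows, and TATAAA before Cxcr4 alone, against 12.4%. These member counts are by gene and the shares by window. Counted by window, 1 of 10 member windows held the TCF/LEF motif, 6 the hypoxia core, 7 an ETS core and 1 TATAAA. Both strands were searched, and no match overlapped one of another motif in the windows of the members. Mcam had none of these letters in its window. A match describes the letters and not a site in use, and these matches were set against no measurement of binding.

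Apln encodes apelin, a secreted peptide of tip cells that acts on the receptor Aplnr on neighbouring endothelium. It lies on chromosome X (48025146 to 48034853, minus strand, GENCODE M21 on mm10). Apln was at 6.19 FPKM in the stabilized knockout (5.002 to 7.37), 5.18 FPKM in the knockout (4.13 to 6.22), 4.99 FPKM with stabilization alone (3.97 to 6.004) and 3.63 FPKM in WT (2.81 to 4.45). WT was the lowest of the 4 libraries, and its interval was apart from that of the stabilized knockout alone. The stabilized knockout was 1.71 times as high as WT, a log2 ratio of 0.70 on FPKM plus 0.5, the scale of all log2 ratios below.

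Igfbp3 (chromosome 11, 7206086 to 7213923, minus strand) encodes a secreted protein that binds insulin-like growth factors. Its level was 5.18 FPKM in the stabilized knockout (4.04 to 6.33), 4.00 FPKM in the knockout (3.05 to 4.96), 4.05 FPKM with stabilization alone (3.09 to 5.01) and 1.96 FPKM in WT (1.40 to 2.51). Every altered genotype thus lay above WT with intervals apart. Loss of Ndp and stabilization each came with about the same ratio, 0.87 in the knockout against WT and 0.89 in the stabilized library against WT, both of which use the same WT library. With both changes the ratio to WT was 1.21.

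Adm (chromosome 7, 110627661 to 110629820, plus strand) encodes adrenomedullin, a vasoactive peptide that hypoxia induces in many cell types. It was at 1.68 FPKM in the stabilized knockout (1.12 to 2.25), 3.32 FPKM in the knockout (2.35 to 4.28), 1.52 FPKM with stabilization alone (0.996 to 2.05) and 2.01 FPKM in WT (1.37 to 2.66). The knockout was the highest library, with an interval apart from those of both stabilized libraries and overlapping that of WT. The stabilized knockout was lower than the knockout by 0.81 on the log2 scale, and 99.4% of all genes tested had a higher ratio in that comparison.

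Esm1 (chromosome 13, 113209659 to 113218098, plus strand), the proteoglycan endocan and a marker of tip cells, was low in whole retina. Its level was 0.520 FPKM in the stabilized knockout (0.313 to 0.727), 0.365 FPKM in the knockout (0.207 to 0.524), 0.295 FPKM with stabilization alone (0.160 to 0.430) and 0.130 FPKM in WT (0.0435 to 0.216). The order of the libraries was that of Apln, and WT and the stabilized knockout had intervals apart, at 4.01 times the WT value in the stabilized knockout. The interval reached 66.5% of the value to each side in WT, so the size of that ratio is loosely fixed.

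**Figure D1:**
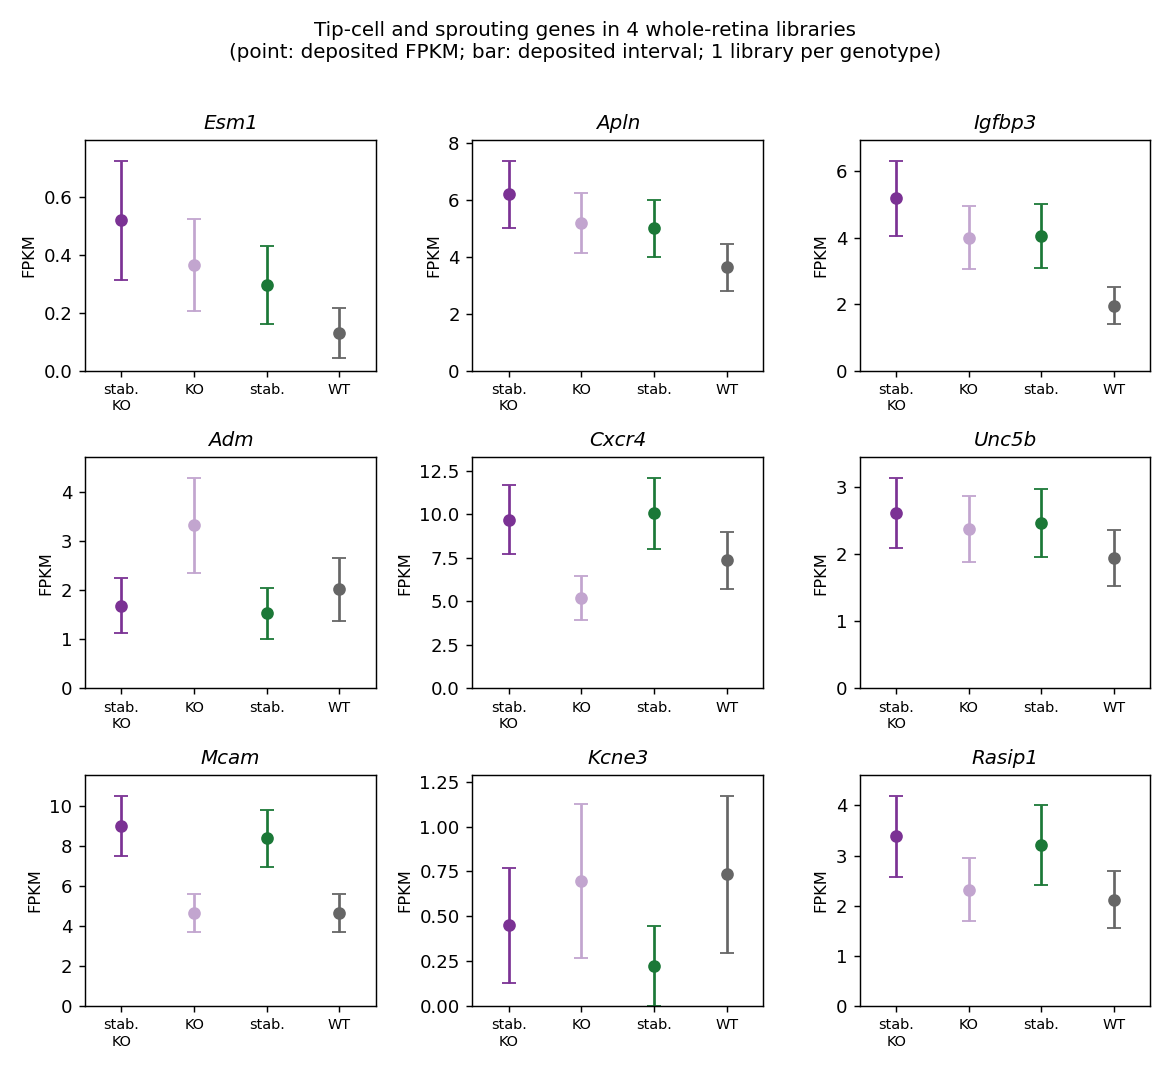
Deposited FPKM (points) and deposited intervals (bars) of the 9 genes in the stabilized knockout, knockout, stabilized and WT libraries, with 1 library per genotype and an axis from 0 in each panel. Igfbp3 is lowest in WT at 1.96 FPKM, Adm is highest in the knockout at 3.32 FPKM, and Mcam lies at 9.02 and 8.40 FPKM with stabilization against 4.65 FPKM in both other libraries.

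Among the receptors, Mcam was 1.5-fold higher with stabilization in both Ndp genotypes. Cxcr4 was so without Ndp (0.84), while with Ndp intact its ratio of 0.42 did not pass and the intervals overlapped. Cxcr4 (chromosome 1, 128588199 to 128592293, minus strand), the receptor of the chemokine Cxcl12, was the member of highest level in every library. It was at 9.70 FPKM in the stabilized knockout (7.72 to 11.7), 5.18 FPKM in the knockout (3.91 to 6.46), 10.05 FPKM with stabilization alone (8.02 to 12.1) and 7.36 FPKM in WT (5.73 to 9.002). The knockout was the lowest library, with an interval apart from those of both stabilized libraries and overlapping that of WT. The stabilized knockout was 1.87 times as high as the knockout.

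Mcam (chromosome 9, 44134469 to 44142727, plus strand), also named CD146, is an adhesion molecule of endothelium and pericytes. It was at 9.02 FPKM in the stabilized knockout (7.51 to 10.5), 4.65 FPKM in the knockout (3.70 to 5.595), 8.40 FPKM with stabilization alone (6.96 to 9.84) and 4.65 FPKM in WT (3.71 to 5.59). Both libraries with stabilization lay above both without it, with no overlap of intervals across that divide. The ratio was 0.89 without Ndp and 0.79 with Ndp intact, and the knockout and WT were level. Pericyte and smooth muscle genes were also higher with stabilization, with a sum over 10 mural genes of 35.6 FPKM in the stabilized knockout, 15.96 FPKM in the knockout, 37.6 FPKM with stabilization alone and 23.7 FPKM in WT. This sum was lower in the knockout than in WT through 1 gene, Rgs5, at 9.63 FPKM against 17.6 FPKM. The median ratio of mural genes in that comparison was 0.02 over 6 tested genes and 0.01 over all 10. The part of mural genes in the Mcam values was not tested.

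Unc5b (chromosome 10, 60762593 to 60831581, minus strand), a netrin receptor that guides tip cell filopodia, was at 2.61 FPKM in the stabilized knockout, 2.37 FPKM in the knockout, 2.47 FPKM with stabilization alone and 1.95 FPKM in WT. All 4 intervals overlapped, and the highest library was 1.34 times the lowest.

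The remaining members act inside or at the membrane of endothelial cells. Rasip1 (chromosome 7, 45627488 to 45639093, plus strand), an effector of the small GTPase Rap1 needed for lumen formation, was at 3.38 FPKM in the stabilized knockout (2.57 to 4.19), 2.32 FPKM in the knockout (1.70 to 2.94), 3.22 FPKM with stabilization alone (2.42 to 4.02) and 2.12 FPKM in WT (1.55 to 2.69). Both stabilized libraries were above both others, but the intervals overlapped in every pair, and the ratios of 0.46 without Ndp and 0.51 with Ndp fell short of 1.5-fold. Kcne3 (chromosome 7, 100176502 to 100184869, plus strand), an accessory subunit of potassium channels, was at 0.449 FPKM in the stabilized knockout (0.128 to 0.769), 0.696 FPKM in the knockout (0.269 to 1.12), 0.220 FPKM with stabilization alone (0 to 0.444) and 0.734 FPKM in WT (0.297 to 1.17). Here the libraries with stabilization were the lower ones, with wide intervals that overlapped in every pair.

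Stabilization with Ndp intact, the stabilized library against WT, put 2 of the 7 tested members at least 1.5-fold higher, Igfbp3 (0.89) and Mcam (0.79), and none 1.5-fold lower. Over all 13150 genes tested, 1.67% were 1.5-fold higher and 1.71% 1.5-fold lower. Both members had intervals apart from WT, which was so for 0.875% of all genes tested on the higher and 0.563% on the lower side. The members were chosen with earlier results of these data known, so a count above these shares is a description. The median ratio of the tested members was 0.42 against -0.02 over all genes tested, and 0.41 over all 9 members. Rasip1 (0.51), Cxcr4 (0.42), Apln (0.41), Unc5b (0.28) and Adm (-0.31) lay between the limits with overlapping intervals. Of the members below 1 FPKM, Kcne3 was at -0.78 and Esm1 at 0.34.

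Stabilization without Ndp, the stabilized knockout against the knockout, gave 2 members 1.5-fold higher, Mcam (0.89) and Cxcr4 (0.84), and 1 member 1.5-fold lower, Adm (-0.81), all with intervals apart. The shares over all genes tested were 1.76% higher and 0.92% lower, or 0.875% and 0.251% with intervals apart. Here the median was 0.34 over the tested members and 0.24 over all 9, against 0.03 over all genes tested. Rasip1 was at 0.46, Igfbp3 at 0.34, Apln at 0.24 and Unc5b at 0.12, each with overlapping intervals. Below 1 FPKM, Esm1 was at 0.24 and Kcne3 at -0.33.

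Loss of Ndp alone, the knockout against WT, gave 2 members 1.5-fold higher, Igfbp3 (0.87) and Adm (0.60), against 0.966% of all genes tested, and none 1.5-fold lower, against 1.22%. Of these 2, Igfbp3 alone had intervals apart, against 0.266% of all genes tested on the higher and 0.243% on the lower side, and Adm fell short of 1.5-fold with a pseudocount of 1 (0.52). Apln (0.46), Esm1 (0.46), Unc5b (0.23), Rasip1 (0.11), Mcam (-0.00011), Kcne3 (-0.05) and Cxcr4 (-0.47) did not pass and had overlapping intervals. The median was 0.23 over the tested members, also over all 9, against -0.02 over all genes tested.

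Loss of Ndp under stabilization, the stabilized knockout against the stabilized library, put no member past 1.5-fold in either direction, against 0.981% higher and 0.692% lower over all genes tested (0.205% and 0.137% with intervals apart). The tested members ran from -0.05 for Cxcr4 to 0.32 for Igfbp3, with overlapping intervals throughout, and their median was 0.10 against 0.04 over all genes tested.

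Set against WT, the stabilized knockout had 3 tested members 1.5-fold higher, Igfbp3 (1.21), Mcam (0.89) and Apln (0.70), all with intervals apart, and none 1.5-fold lower. Over all genes tested 1.79% were 1.5-fold higher and 1.07% 1.5-fold lower, and with intervals apart 1% and 0.236%. Adm was close to WT in this comparison, at -0.20 with overlapping intervals. Of the members below 1 FPKM, Esm1 was at 0.70 with intervals apart and Kcne3 at -0.38 with overlapping intervals. The median was 0.57 over the tested members and over all 9, against 0.01 over all genes tested.

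**Figure D2:**
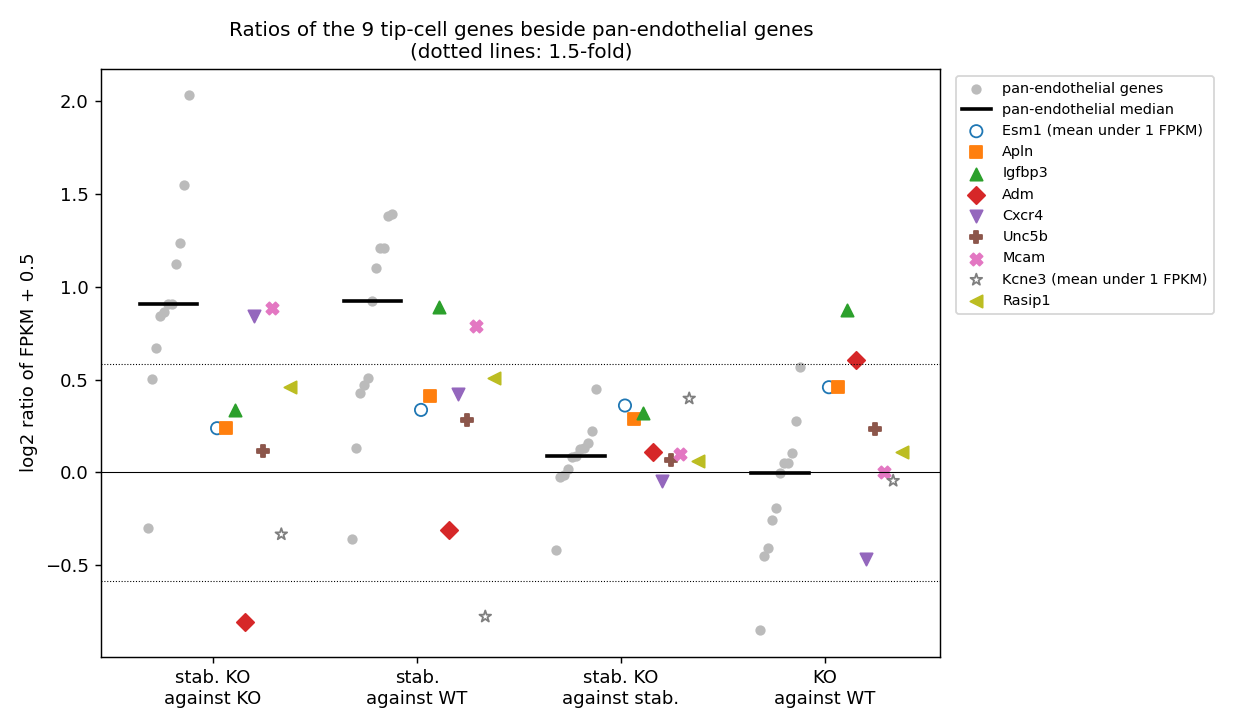
Log2 ratios of FPKM plus 0.5 for the 9 genes (coloured symbols, open where the mean is under 1 FPKM) beside the 11 tested pan-endothelial genes (grey points, black bar for the median of these 11) in 4 comparisons, with dotted lines at 1.5-fold. With stabilization Mcam sits near the pan-endothelial median (0.89 against 0.90 without Ndp) and Adm at -0.81 lies below all of those genes, while in the knockout against WT Igfbp3 (0.87) and Adm (0.60) lie above all of them.

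Endothelial identity genes differed along with stabilization, so the members were also read against them. The median ratio of all 16 such genes was 0.85 in the stabilized knockout against the knockout and 0.69 in the stabilized library against WT. Over the 11 that passed the filter it was 0.90 and 0.92, but 3 of these, Tie1, Icam2 and Eltd1, averaged under 1 FPKM in the libraries without stabilization and passed only through those with it. Relative to either median, no tested member stood 1.5-fold higher in either comparison. Relative to the median of all 16, Adm was at -1.66 without Ndp and -1.005 with Ndp, both 1.5-fold lower. Unc5b (-0.74) and Apln (-0.62) were 1.5-fold lower without Ndp, but not with Ndp (-0.41 and -0.28), where Unc5b passed against the median of the 11 (-0.64). Most genes pass as lower on this scale. Without Ndp 89.1% of all genes tested had a lower ratio than Apln, and with Ndp 91.7% a lower one than Unc5b. These calls of Unc5b and Apln thus do not set them apart from genes at large. With Ndp the call of Adm likewise came only with the centring, from a ratio of -0.31 with overlapping intervals. There 9.07% of all genes tested had a lower ratio than Adm, and without Ndp 0.624%. Mcam was at 0.03 and 0.10 against all 16, and at -0.02 and -0.13 against the 11. In the knockout against WT the pan-endothelial median was -0.00 over the tested genes and -0.10 over all 16, and Igfbp3 and Adm exceeded each of the 11 tested genes.

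As a share of the summed pan-endothelial FPKM of its own library, Mcam was 19.8% in the stabilized knockout, 21.9% in the knockout, 19.6% with stabilization alone and 19.1% in WT. Its share was thus nearly flat across genotypes. Adm made up 3.69% in the stabilized knockout, 15.6% in the knockout, 3.56% with stabilization alone and 8.26% in WT, the widest ratio of highest to lowest share among the 7 tested members. The share of Apln was 13.6%, 24.4%, 11.7% and 14.9% in the same order, and that of Igfbp3 11.4%, 18.8%, 9.47% and 8.04%. All members except Cxcr4, whose share was highest in WT (30.2%), had their highest share in the knockout, where the pan-endothelial sum was lowest.

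**Figure D3:**
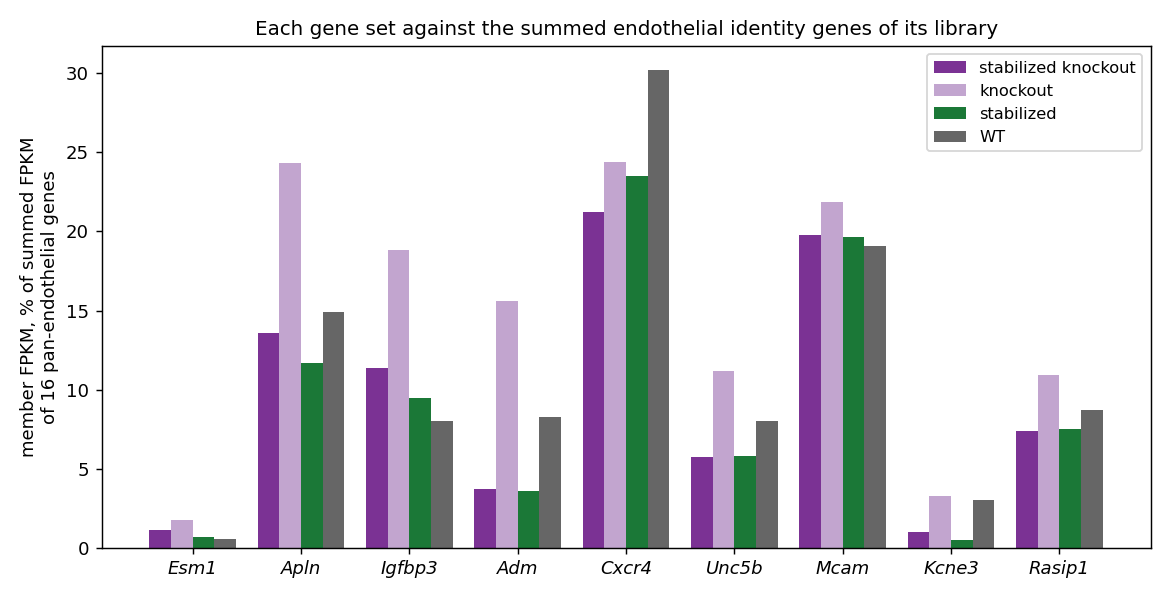
FPKM of each of the 9 genes as a percentage of the summed FPKM of 16 pan-endothelial genes in the same library, with 1 bar per genotype and no error bar because each genotype has 1 library. Mcam stays between 19.1% and 21.9%, and Adm reaches 15.6% in the knockout against 3.69% in the stabilized knockout.

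The effect of stabilization differed most between the Ndp genotypes for Igfbp3, Adm and Cxcr4 among the tested members. The difference, the log2 ratio without Ndp minus that with Ndp, was -0.55 for Igfbp3, -0.49 for Adm and 0.42 for Cxcr4. Of all genes tested, 3.74% had a larger difference than Igfbp3 in either direction, 4.87% than Adm and 6.81% than Cxcr4. For Mcam (0.10) and Rasip1 (-0.05) the 2 ratios were nearly equal. The median was -0.16 over the tested members and 0.06 over all genes tested. With 1 library per genotype none of these differences was tested.

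**Figure D4:**
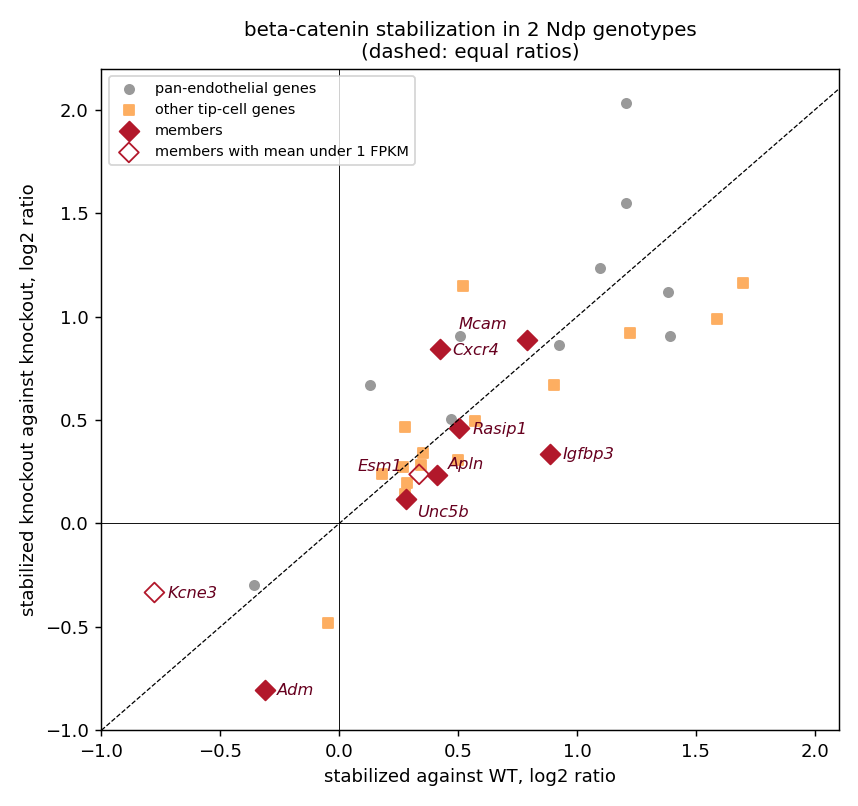
Log2 ratio of the stabilized knockout against the knockout (vertical) plotted over that of the stabilized library against WT (horizontal) for the members (diamonds, open under 1 FPKM), other tip-cell genes (squares) and pan-endothelial genes (circles), with a dashed line of equal ratios. Mcam and Rasip1 lie by the line, Cxcr4 above it (0.84 and 0.42), Igfbp3 below it (0.34 and 0.89), and Adm and Kcne3 are negative on both axes.

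The receptors, ligands and partners of the members were followed through a list of 25 genes in the table, of which 18 passed the filter. With stabilization 3 of them were 1.5-fold higher without Ndp (1.76% of all genes tested) and the same 3 with Ndp (1.67%). None was 1.5-fold lower (0.92% and 1.71% of all genes tested). The higher ones were Aplnr, Ramp2 and Lama4. Aplnr, the apelin receptor, was at 3.54 FPKM in the stabilized knockout and 1.16 FPKM in the knockout (1.29), and at 3.52 FPKM with stabilization alone and 1.56 FPKM in WT (0.96). In the knockout against WT, Apln was at 0.46 and Aplnr at -0.32, neither past 1.5-fold and both with overlapping intervals. Lama4, a laminin chain of vessel walls that binds Mcam, was at 2.18 FPKM against 0.677 FPKM without Ndp (1.18), and at 2.14 FPKM against 0.634 FPKM with Ndp (1.22). It passed the filter only through the libraries with stabilization, so its place in the count is a description.

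Adrenomedullin signals through Calcrl together with Ramp2 or Ramp3. Ramp2 was at 10.1 FPKM in the stabilized knockout and 6.02 FPKM in the knockout, and at 10.03 FPKM with stabilization alone and 5.83 FPKM in WT, with overlapping intervals. Ramp3 (-0.48 and -0.05) and Calcrl, which lay below 1 FPKM on average (-0.53 and -0.34), were not higher with stabilization. Igf2, a growth factor that Igfbp3 binds, was at 33.0 FPKM in the stabilized knockout, 24.6 FPKM in the knockout, 21.4 FPKM with stabilization alone and 14.5 FPKM in WT, and was 1.5-fold higher in both comparisons of Ndp loss (0.61 under stabilization and 0.74 without it). Cxcl12 was at 0.35 and 0.28 in the comparisons of stabilization, and the Rasip1 partners Radil, Arhgap29 and Rap1b remained within 1.5-fold in all 5 comparisons.

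Of 20 other tip-cell genes 15 passed the filter. In the stabilized knockout against the knockout 5 passed 1.5-fold upward (1.76% of all genes tested) and 0 downward (0.92%), with a median of 0.34. In the stabilized library against WT 4 passed upward (1.67%) and 0 downward (1.71%), with a median of 0.35. Those higher in both were the matrix genes Col4a1 (1.16 and 1.70), Col4a2 (0.99 and 1.59), Nid2 (0.92 and 1.22) and Lamb1 (0.67 and 0.90), of which Nid2 passed the filter only through the libraries with stabilization, and Cd34, an adhesion protein of endothelium, passed 1.5-fold without Ndp (1.15) and not with Ndp (0.52). Angpt2, an angiopoietin released by sprouting endothelium, was at 0.34 and 0.35, and the Notch ligand Dll4, which tip cells use to hold back their neighbours, at 0.50 and 0.57. Kdr, the main VEGF receptor and also a gene of retinal neurons, was at 0.20 and 0.29. In the knockout against WT 2 of the 15 were higher, Col4a1 (0.64) and Col4a2 (0.63), against 0.966% of all genes tested. In the stabilized knockout against the stabilized library none was, against 0.981%.

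Stalk and phalanx genes, known from endothelium behind the tip, gave a median of 0.09 in the stabilized knockout against the knockout and 0.10 in the stabilized library against WT, over 11 tested genes. Their levels in WT ran from 0.912 FPKM for Acvrl1 to 26.6 FPKM for Id1, against 1.93 FPKM for the endothelial Pecam1. Whole retina does not show which cells this RNA came from, so the median does not describe stalk endothelium alone. Aplnr was the higher gene in the first, and Id1, a target of BMP signalling, the lower one, at 17.1 FPKM against 31.1 FPKM (-0.84). In the second Aplnr and Acvrl1 (0.62), an endothelial BMP receptor that also passed the filter only through the libraries with stabilization, were higher. Hey1 (-0.13 and -0.03) and Nrarp (0.11 and -0.07), which Notch induces, had overlapping intervals in both.

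Because several members, such as Adm, Apln and Igfbp3, can be induced by hypoxia, 26 tested hypoxia genes were read beside them. In the stabilized knockout against the knockout their median was -0.11 with none past 1.5-fold, and in the stabilized library against WT -0.17 with Ak4 alone 1.5-fold lower (-0.70). In the knockout against WT the median was 0.04 and Hk2 alone was 1.5-fold higher (0.64). Vegfa was at 90.8 FPKM in the stabilized knockout, 116 FPKM in the knockout, 87.0 FPKM with stabilization alone and 107 FPKM in WT, so the libraries stood in the same order as for Adm. It remained within 1.5-fold with overlapping intervals in every comparison. Ldha, Pgk1, Tpi1, Pdk1, Pfkfb3 and Ppp1r3c also had the library order of Adm, each within 1.5-fold in every comparison. Further genes of the list had another order, such as Slc2a1, highest in the stabilized knockout (94.5 FPKM), and Ankrd37, highest in WT (35.1 FPKM). Unlike Adm, Apln and Igfbp3, the member Cxcr4, which has the hypoxia core in its window, was lowest in the knockout (5.18 FPKM against 7.36 FPKM in WT). The part of hypoxia in the values of the members was not tested.

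Likeness of pattern was measured as the distance between log2 profiles over the 4 libraries, each centred on its mean, among 11709 genes outside the members. The nearest genes to Igfbp3 were Gfap, an intermediate filament of astrocytes and stressed Muller glia (distance 0.19), A2m (0.22) and Xlr3c (0.24), and only 3 genes lay within 0.25. Gfap was at 8.80 FPKM in the stabilized knockout, 6.38 FPKM in the knockout, 7.10 FPKM with stabilization alone and 4.02 FPKM in WT. Nearest to Mcam were Pdgfra, a gene of the astrocyte list (0.06), Ubtd2 (0.08) and the endothelial Pecam1 (0.10). Nearest to Adm were the rod transducin gene Gnat1 (0.13), Alpl (0.19) and Scd1 (0.22), and nearest to Cxcr4 were Pcdha6 (0.11), Htra3 (0.15) and Hist2h2ac (0.16).

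Flat or common patterns had many neighbours. As many as 3969 genes lay within 0.25 of Unc5b, led by Tcof1, Ddb1 and Por, 576 within 0.25 of Rasip1, led by Sorcs2, AI463170 and Ace, and 139 within 0.25 of Apln, led by Clstn1, Lcn2 and Grin1. Among the members themselves, Apln and Unc5b were the closest pair (0.26) and Adm and Mcam the most distant (1.46).

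By level, Cxcr4 stood first in each library and Esm1 and Kcne3 last. In the stabilized knockout Cxcr4 and Mcam had overlapping intervals and both were apart from Apln, which came next. The order was the same in the stabilized library. In the knockout the intervals of neighbours overlapped from Cxcr4 through Apln, Mcam, Igfbp3, Adm, Unc5b and Rasip1, so that order is not resolved, and in WT Cxcr4 was apart from Mcam and Apln from Rasip1. Igfbp3 ranked 4 of 9 in every library except WT, where it ranked 6. The 9 members summed to 38.7 FPKM in the stabilized knockout, 28.1 FPKM in the knockout, 35.2 FPKM with stabilization alone and 24.5 FPKM in WT.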

How the data were processed

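RNA sequencing of whole retinas at postnatal day 10 gave 1 library per genotype, each from 3 pooled batches, made with Illumina's TruSeq v2 kit for RNA, per the labels' protocols. TopHat, Cuffdiff and mm10 are named in the submitters' processing notes, and neither their versions nor the annotation, strand, read totals or interval level is given in the sources used here. The authors deposited FPKM with a lower and an upper bound per gene. FPKM are relative within a library, so abundant RNA shifts all others. Columns were matched to libraries by the number in the sample description, and groups came from the labels.

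Log2 ratios were computed on FPKM plus 0.5, over 13150 genes with a mean of at least 1 FPKM and status OK in all 4 libraries, and called at 1.5-fold. Genes with another status in any library, 145 in number, were left out. No p-value was computed. The pseudocount understates changes of low genes. The members and lists were chosen with earlier results of these data known. Beside the members the lists were other tip-cell genes, stalk and phalanx genes, partners, pan-endothelial, mural, microglia, astrocyte, Muller glia, ganglion cell, photoreceptor, hypoxia, proliferation and erythroid genes. Pdgfb was left out of the tip-cell list because the CreER construct carries its regulatory sequence. Named genes were all members, up to 4 list genes per direction and comparison past 1.5-fold (2 for cell type and state lists), the 3 nearest genes of each tested member and checks of genotype and endothelium. Other list genes given within 1.5-fold were chosen after their values were seen.

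For relative depth, the squared ratio of FPKM to SD, with the upper bound read as 2 SD, was taken at its commonest value among genes under 0.3 FPKM. No gene shared its deposited locus with a member. Coordinates came from GENCODE M21 on the same build. Alternatives were other pseudocounts (0.1, 1), other minimum means (0.5 or 5 FPKM, or none), centring on all genes or on the pan-endothelial genes, the same total, intervals apart and 2-fold. Leaving out short RNA genes and centring on all 16 pan-endothelial genes were added after the values had been seen. The software was Python 3.11.15, numpy 2.4.6, pandas 2.3.3 and matplotlib 3.10.9.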

Additional observations from a re-analysis of the deposited data

Results flagged for a closer look

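Mcam had opposite signs for the loss of Ndp in the 2 states of beta-catenin, with a log2 ratio of 0.097 in the stabilized knockout against the stabilized library and -0.00011 in the knockout against WT. Both ratios are small beside the deposited intervals, which overlapped in each pair, and the difference was not tested.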

How the results depend on the processing

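No paired analysis was possible because each genotype has 1 library and no replicate to pair. The number of members 1.5-fold apart was unchanged in all 5 comparisons after re-centring on all genes, rescaling to the same total or leaving out short RNA genes, and with a pseudocount of 0.1 except for Rasip1, which then also passed in the stabilized knockout against WT. In the knockout against WT the higher members numbered 1 with a pseudocount of 1 and 1 with intervals apart, without Adm, and 0 at 2-fold. A minimum of 0.5 FPKM, and none, each added Kcne3 as 1 lower member in the stabilized library against WT, and with none Esm1 also passed in the stabilized knockout against WT. A minimum of 5 FPKM left Cxcr4 and Mcam, so that the higher members numbered 1 in the stabilized library against WT, 0 in the knockout against WT and 1 in the stabilized knockout against WT, the lower members 0 in the stabilized knockout against the knockout, and the median difference of the stabilization effects was 0.26. At 2-fold the higher members numbered 0 with stabilization in either Ndp genotype and 1, Igfbp3, in the stabilized knockout against WT, and the lower members 0 in the stabilized knockout against the knockout. Of all genes tested, 0.791% were 2-fold higher with stabilization without Ndp, 0.7% with Ndp and 0.745% in the stabilized knockout against WT. On the lower side 0.464% were so in the stabilized knockout against the knockout.

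Centring on the median of the 11 tested pan-endothelial genes moved most. In the 3 comparisons with stabilization the higher members then numbered 0, and the lower ones 3 in the stabilized knockout against the knockout, 2 in the stabilized library against WT and 2 in the stabilized knockout against WT. At least 89.1%, 91.7% and 94.3% of all genes tested were 1.5-fold lower on this scale too. These are the shares with a ratio under that of Apln in the first and of Unc5b in the others. The calls for loss of Ndp did not move. Of the 7 tested members, 6, 6 and 5 changed sign in those comparisons, since this setting subtracts a median of 0.90 to 0.96 by construction, and Adm, already negative, did not. Among them, those 1.5-fold higher before centring were Mcam (-0.017, -0.13 and -0.070), Cxcr4 (-0.061 in the first), Igfbp3 (-0.035 in the second) and Apln (-0.26 in the third). With the median of all 16 genes, a setting chosen after seeing the data, 5, 4 and 4 changed sign, including Cxcr4 (-0.0096 in the first) and Apln (-0.16 in the third) but not Mcam. The higher members again numbered 0 in all 3 and the lower ones 3, 1 and 1, since Unc5b lost its call in the second and the third. The values of Esm1 and Kcne3 are the most loosely fixed among the members, since their deposited intervals reach at least 39.8% and 59.6% of the value to each side.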

Other observations

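Other cell types of the retina were read in the same comparisons, with 1 library per genotype and no test. Over all genes tested 1.76% were 1.5-fold higher in the stabilized knockout against the knockout and 1.67% in the stabilized library against WT. Of 6 tested mural genes 4 were 1.5-fold higher in the stabilized knockout against the knockout (median 0.83), led by Acta2, the smooth muscle actin (1.63), and 4 in the stabilized library against WT (0.88). Of the 6, Abcc9, Acta2 and Notch3 passed the filter only through the libraries with stabilization, and the medians over all 10 mural genes were 0.83 and 0.70. Of 4 tested astrocyte genes 1 was higher in the first, Pdgfra (0.93), and 2 in the second, Pdgfra (0.76) and Gfap (0.75). Ganglion cell genes numbered 0 of 11 past 1.5-fold in the first (median 0.15) and 3 in the second (0.39), led by the neurofilament gene Nefm (0.74). Muller glia had medians of -0.07 and -0.11, photoreceptors -0.05 and 0.02, microglia 0.23 and -0.07, and 4 tested proliferation genes 0.33 and 0.06. Over all 13 proliferation genes the medians were 0.42 and 0.13. Among those below the filter, Mki67, Top2a, Ccnb1, Cdk1, Aurkb and Rrm2 passed 1.5-fold upward in the first, with intervals apart. Bub1, Cenpf and Tpx2, also below it, did not, and none of these low genes passed in the second. Mki67 (0.45) and Top2a (0.57) had intervals apart in the second, while those of the other low genes overlapped. The 4 tested erythroid genes had medians of 1.22 and 1.64, and near-identical globin copies make their separate values uncertain.

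In the knockout against WT the pericyte gene Rgs5 was lower, at 9.63 FPKM against 17.6 FPKM (-0.84), and the rod gene Gnat1 higher, at 401 FPKM against 239 FPKM (0.74). Medians there were 0.02 for mural cells, 0.23 for astrocytes, 0.27 for ganglion cells, 0.04 for Muller glia, 0.10 for photoreceptors, -0.16 for microglia, -0.05 for proliferation (-0.13 over all 13) and -0.27 for erythroid genes.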
